A study of Mus musculus with 20 samples.

Results

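The proteasome genes described here were chosen by symbol. They are all symbols present in both deposited expression tables that begin with Psma to Psmg and a number, except Psmb8, Psmb9 and Psmb10. The rule gave 45 of 15882 gene names, and all 45 passed the filter on low values at both times. By role these are 7 genes of the alpha ring and 7 of the beta ring, 6 base ATPases, 3 other base subunits or ubiquitin receptors, 8 lid subunits, 3 chaperones of the regulatory particle, 4 chaperones of the core particle, and 6 activator or inhibitor genes. The last symbol, Psmc3ip, fits the rule by its letters only, since it encodes a partner in homologous recombination and no proteasome subunit. The name "constitutive proteasome subunits" therefore covers 31 subunits of the 20S core and 19S cap, and 14 genes that are not among them.

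The proteasome degrades proteins that carry ubiquitin chains. Its 20S core is a barrel in which outer rings of alpha subunits gate the entrance and inner rings of beta subunits hold the cutting sites. The 19S cap binds the chain, removes it, and unfolds the substrate with a ring of ATPases. In the intestine, as in other tissues, interferon lets Psmb8, Psmb9 and Psmb10 replace the catalytic beta subunits, which gives the immunoproteasome, and raises the PA28 activator made of Psme1 and Psme2.

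RNA-seq was done on jejunal intestinal epithelial cells of female mice, from crypts per the series design. Mice with knockout of Kdm6a and Kdm6b (DKO), which encode demethylases of histone H3 lysine residues, were compared with Control/WT mice. The acute model, at 7 days after ablation, had 7 DKO and 5 Control libraries, and the prolonged model, at 5 months, had 5 DKO and 3 Control libraries. The labels name neither the promoter behind the ablation nor the treatment that the Control mice received, and call the libraries biological replicates without saying whether any animals were pooled. Acute DKO libraries held 19134272 to 26586045 reads in genes and acute Control libraries 15435118 to 26549494. Prolonged DKO libraries held 12560843 to 20612206 and prolonged Control libraries 9914738 to 23181576. Values are CPM, reads of a gene scaled to the same total in every library. Each log2 fold change is the DKO mean minus the Control mean of log2(CPM + 1), given ± its standard error in limma-trend. A gene counts as called where its p, adjusted over all genes tested by the method of Benjamini and Hochberg, is under 0.05.

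Kdm6a was 38.5 to 45.7 CPM in acute DKO libraries, against 57.7 to 72.6 CPM in acute Control libraries, and Kdm6b was 59.8 to 81.1 CPM in DKO and 91.2 to 109.3 CPM in Control libraries. At the prolonged time Kdm6a was 44.4 to 55.3 CPM in DKO and 70.8 to 82.6 CPM in Control libraries, and Kdm6b was 71.4 to 82.9 CPM in DKO and 99.5 to 106.7 CPM in Control libraries. The values are per whole gene and give no measure of recombination. The 12 epithelial markers summed to 13848 to 14920 CPM in acute DKO and 13094 to 14167 CPM in acute Control libraries, and none was at 0 in every library. In a principal component analysis acute DKO 3 and 4 stood apart, at 34.0 and 45.9 on the first component, against -28.0 to 12.1 for the other acute libraries. Stromal markers summed to 707 CPM in acute DKO 3, against at most 251 CPM in every other acute library.

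The promoters of 4 of the genes described below are shown first, to place the genes and the motifs that are often discussed for proteasome promoters. Each is the 250 bases before the gene start in RefSeq, build GRCm38.p6, written 5′ to 3′ on the gene's strand, with motif matches in capitals. Psma4, an alpha ring gene, lies at chr9:54950609-54950858 (+), Psmb6, a catalytic beta ring gene, at chr11:70525107-70525356 (+), Psmc4, a base ATPase gene, at chr7:28050093-28050342 (-), and Psme1, a PA28 gene, at chr14:55578244-55578493 (+).
Psma4: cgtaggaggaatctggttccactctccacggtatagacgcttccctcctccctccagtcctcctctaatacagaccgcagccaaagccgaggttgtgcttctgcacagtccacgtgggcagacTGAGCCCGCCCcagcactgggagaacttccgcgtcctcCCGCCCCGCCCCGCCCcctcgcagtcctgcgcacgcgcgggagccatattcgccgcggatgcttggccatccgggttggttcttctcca
Psmb6: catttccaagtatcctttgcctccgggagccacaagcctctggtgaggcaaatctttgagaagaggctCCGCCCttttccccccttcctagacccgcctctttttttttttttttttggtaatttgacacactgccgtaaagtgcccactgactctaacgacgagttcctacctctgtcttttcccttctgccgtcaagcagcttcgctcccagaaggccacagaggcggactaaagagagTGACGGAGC
Psmc4: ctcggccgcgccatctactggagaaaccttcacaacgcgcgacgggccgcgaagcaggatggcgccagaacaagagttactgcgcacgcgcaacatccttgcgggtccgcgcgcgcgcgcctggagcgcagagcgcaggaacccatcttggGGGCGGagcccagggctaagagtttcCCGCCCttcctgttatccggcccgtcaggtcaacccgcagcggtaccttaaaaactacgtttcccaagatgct
Psme1: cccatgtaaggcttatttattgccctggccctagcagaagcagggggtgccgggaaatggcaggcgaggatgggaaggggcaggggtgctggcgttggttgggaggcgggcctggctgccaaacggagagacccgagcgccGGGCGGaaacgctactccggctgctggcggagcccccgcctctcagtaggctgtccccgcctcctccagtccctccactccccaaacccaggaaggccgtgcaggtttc
The motifs searched, on both strands, were TGANNNNGC, the core of the antioxidant response element that Nfe2l1 and Nfe2l2 bind with a small Maf partner, CCAAT, the box of NF-Y, and GGGCGG, the GC box. In Psma4 the TGANNNNGC match overlaps a GC box. Psmg2 was among the members without a promoter entry, and 38 of the 45 genes had one. TGANNNNGC was in 15 of these (39.5%), against 38.7% of all 27025 genes with an entry, and CCAAT in 13 (34.2%), against 37.5%. GGGCGG was in 21 (55.3%), against 35.4% of all genes. A match describes letters in this window and shows no binding.

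At the acute time the genes of the core and cap had slightly lower values in DKO epithelium, with a median change of -9.75% over the 31 core and cap subunits. The 4 core assembly chaperones with Psmg symbols differed by more. Of the 45 genes, 10 were called lower and 0 higher, where 12.1% of all 13601 genes tested were called lower and 2.90% higher. The share of members called, 10 of 45, is to be read against that background. By limma-trend 26 of the 45 had an unadjusted p under 0.05, as did 3924 of all 13601 genes tested. The median log2 fold change of the 45 genes was -0.14, a change of -9.25%, against -0.07 over all genes, and 41 of the 45 lay below 0, as did 64.6% of all genes. The size of this result depends on how libraries are scaled. When CPM was scaled with TMM factors, which correct for a few genes taking a larger share of reads, 1 of the 45 genes, Psmg2, was called lower (8.26% of all genes were), the members' median was -0.05 and the median of all genes 0.01.

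**Figure D1:**
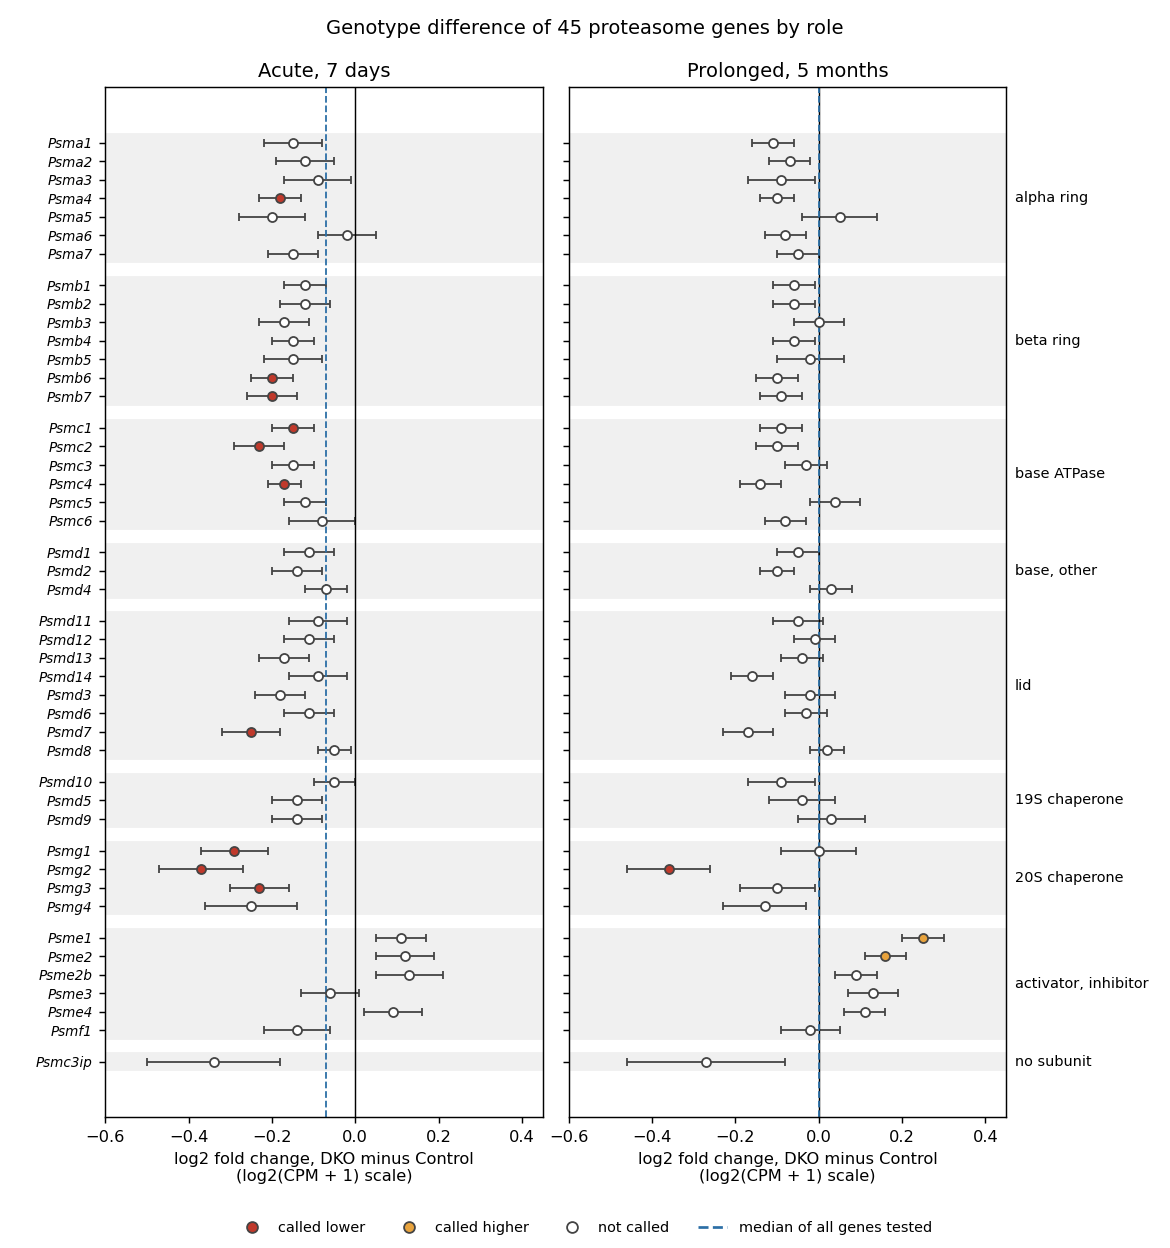
Log2 fold change (DKO minus Control, x axis) of each of the 45 genes by role (rows), at the acute time on the left and the prolonged time on the right. Points are limma-trend estimates, bars are standard errors, and filled points are called at an adjusted p under 0.05. At the acute time 41 genes lie left of 0 (34 on TMM-scaled CPM) and 10 are filled, and at the prolonged time Psmg2, Psme1 and Psme2 are filled.

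In the alpha ring, whose subunits form the gate of the barrel, 7 of 7 genes lay below 0 and 1 was called, with a median of -0.15. Over all genes 64.6% lay below 0 and 12.1% were called lower. Psma4 was 106.9, 114 and 123 CPM (lowest, median and highest) in the 7 acute DKO libraries, against 140.3, 124, 129.8, 125 and 130.3 CPM in acute Control libraries. Every DKO library lay below every Control library (log2 fold change -0.18 ± 0.05, adjusted p = 0.0308 by limma). Reads of Psma4 are uncertain, since 66.9% of its transcript has a near-identical match in Gm6542. The other 6 alpha ring genes lay between -0.20 for Psma5 and -0.02 for Psma6, and none passed the test.

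In the beta ring 7 of 7 genes lay below 0 and 2 were called lower, against 64.6% and 12.1% of all genes. Psmb6, which encodes the subunit with caspase-like activity, was 109.5, 121 and 130.5 CPM (lowest, median and highest) in acute DKO libraries, against 138, 142, 139.6, 141 and 139 CPM in acute Control libraries. The groups did not overlap, and the Control libraries lay close together (-0.20 ± 0.05, adjusted p = 0.0142 by limma). Psmb7, the subunit with trypsin-like activity, was 95.8 to 126 CPM in DKO and 120.0 to 134 CPM in Control libraries, so the groups overlapped (-0.20 ± 0.06, adjusted p = 0.0479 by limma). Of the exon bases of Psmb7, 11.8% are shared with Nek6 on the opposite strand. Psmb5, the subunit with chymotrypsin-like activity, had -0.15 ± 0.07 and an adjusted p of 0.152 by limma. Its reads are uncertain, since 88.4% of its transcript has near-identical matches elsewhere and 12.1% of its exon bases are shared with Mir686 on the same strand. Psmb4 did not overlap between groups, with 198 to 237 CPM in DKO and 238 to 246 CPM in Control libraries, and missed the threshold (adjusted p = 0.0707 by limma). In all, 6 members lay lower in every DKO than in every Control library (6.55% of all genes did).

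Of the 6 base ATPases, which unfold the substrate and open the gate, 3 were called lower (12.1% of all genes were). Psmc2 was 83.8, 90.8 and 100.3 CPM (lowest, median and highest) in acute DKO libraries, against 116, 102, 106.6, 106 and 104.8 CPM in acute Control libraries. The lowest Control library stood just above the highest DKO library (-0.23 ± 0.06, adjusted p = 0.0167 by limma). Psmc4 was 82.4, 87.1 and 92.5 CPM in DKO, against 105.1, 94.1, 96.5, 101 and 98.3 CPM in Control libraries. Its groups did not overlap either (-0.17 ± 0.04, adjusted p = 0.0205 by limma). Psmc1 had -0.15 ± 0.05 and an adjusted p of 0.0494 by limma, and 82.0% of its transcript has near-identical matches elsewhere.

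The 3 other base genes, Psmd1, Psmd2 and Psmd4, had -0.11, -0.14 and -0.07, and none was called. Psmd2, a scaffold subunit that receives ubiquitin and its shuttle proteins, was 173, 181 and 216 CPM (lowest, median and highest) in acute DKO libraries, against 230.5, 199.5, 199, 196 and 197 CPM in acute Control libraries. The DKO range reached past 4 of the 5 Control libraries (adjusted p = 0.161 by limma), and 98.2% of the Psmd2 transcript has a near-identical match in Gm5422. Of the 8 lid genes 8 lay below 0 (64.6% of all genes did), with a median of -0.11, and 1 was called lower (12.1% of all genes were). Psmd7, a scaffold partner of the lid deubiquitinase Psmd14, was 74.2, 81.1 and 95.2 CPM in DKO, against 110.7, 89.6, 101, 96.8 and 102 CPM in Control libraries. The groups overlapped at Control 2 (-0.25 ± 0.07, adjusted p = 0.0309 by limma). Psmd14 had -0.09 ± 0.07 with an adjusted p of 0.431 by limma.

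**Figure D2:**
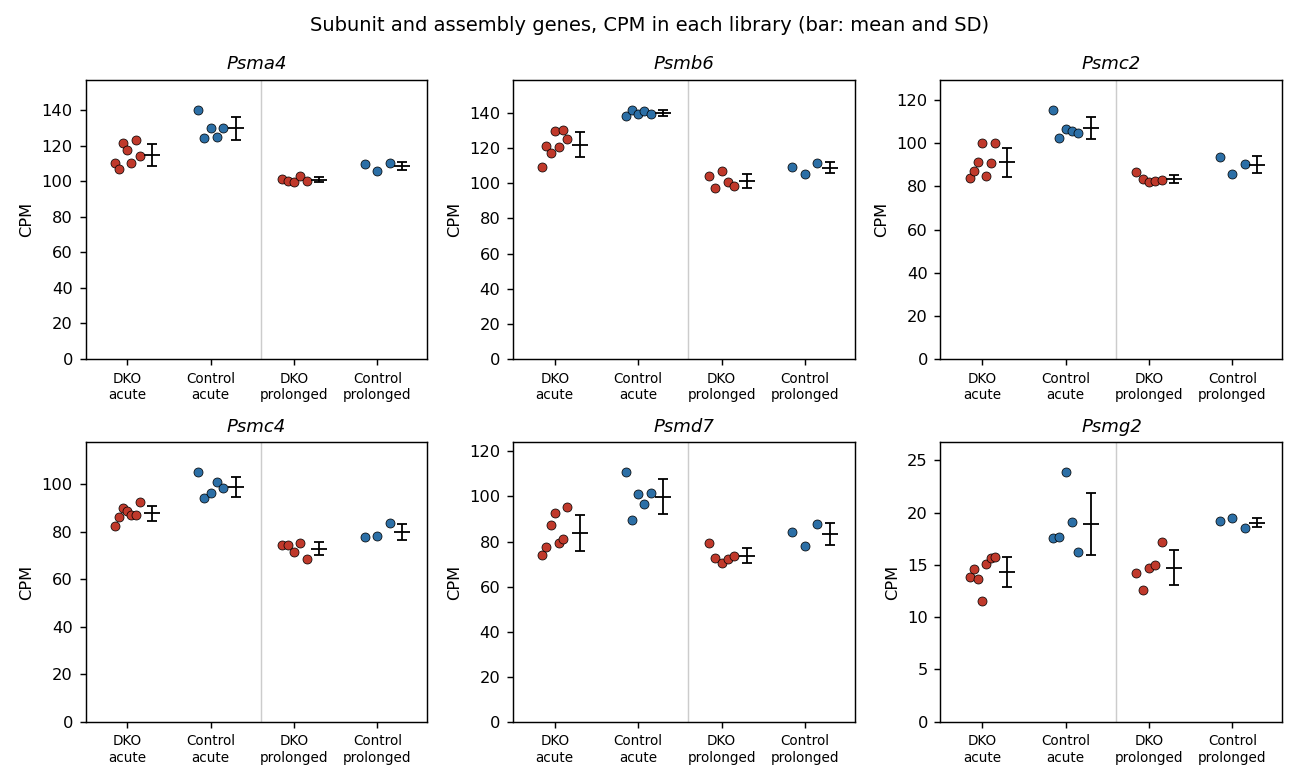
CPM (y axis, from 0) of 5 subunit genes and the assembly chaperone gene Psmg2 in each library, DKO left of Control at each time. Points are libraries, and bars beside them give the mean and SD. In Psmb6 and Psmg2 every acute DKO library lies below every acute Control library.

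Over the 31 core and cap subunits together, 7 were called lower, 31 of 31 lay below 0 and the median was -0.15, where 12.1% of all genes were called lower, 64.6% lay below 0 and the median was -0.07. Their summed level was 3343 ± 190 CPM in acute DKO libraries and 3680 ± 157 CPM in acute Control libraries (SD, n = 7 and n = 5). The sum was 3119 CPM in the lowest, 3415 in the median and 3616 in the highest DKO library, against 3941, 3570, 3703, 3556 and 3632 CPM in the Control libraries. The highest DKO sum, that of DKO 4, exceeded the sums of Control 2 and 4, so the sums overlapped. With TMM-scaled CPM none of the 31 was called by limma-trend (8.26% of all genes were), with 26 of 31 below 0 and a median of -0.06. With TMM factors edgeR also called none of the 31, and with these factors, with relative log expression factors and in DESeq2 the only one of the 45 called was Psmg2, where 7.95%, 7.57% and 9.18% of all genes were called lower.

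**Figure D3:**
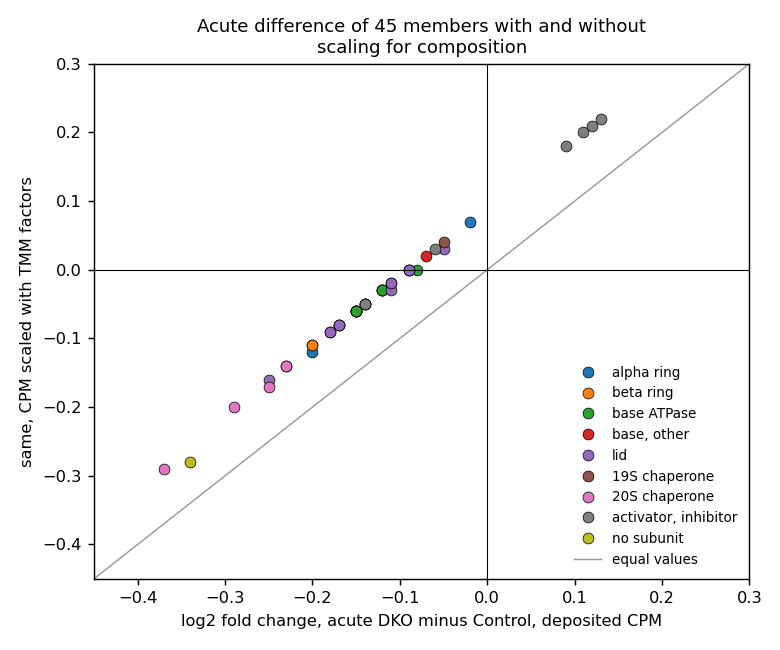
Log2 fold change (acute DKO minus Control) of the 45 genes on deposited CPM (x axis) and on CPM scaled with TMM factors (y axis), coloured by role. All points lie above the line of equal values. The members' median is -0.14 on the x axis and -0.05 on the y axis.

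Among the role groups of more than 1 gene, the 4 Psmg assembly chaperones of the core stood lowest at the acute time. Psmg1 and Psmg2 form one heterodimer and Psmg3 and Psmg4 another, and both help the alpha ring to form. Of the 4 genes 3 were called lower on deposited CPM, with a median of -0.27, and 1 on TMM-scaled CPM and by edgeR. Over all genes 12.1% were called lower on deposited CPM, 8.26% on TMM-scaled CPM and 7.95% by edgeR with TMM factors. The summed level of the 4 genes was 61.8 ± 4.19 CPM in acute DKO libraries and 76.3 ± 5.66 CPM in acute Control libraries (SD, n = 7 and n = 5). The sums did not overlap, at 57.3 to 69.1 CPM in DKO and 71.4 to 85.5 CPM in Control libraries. Psmg2 was 11.6, 14.6 and 15.7 CPM (lowest, median and highest) in acute DKO libraries, against 17.6, 17.7, 23.8, 19.1 and 16.2 CPM in acute Control libraries. Every DKO library was below every Control library (-0.37 ± 0.10, adjusted p = 0.0270 by limma). Psmg2 was the member that all 4 count or scaled fits called, with an adjusted p of 0.0265 by limma on TMM-scaled CPM, 0.0225 by edgeR and 0.00763 by DESeq2. The authors' deposited table lists it at -0.30 with an adjusted p of 0.00812.

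Psmg1 was 17.2, 19.8 and 21.6 CPM in acute DKO, against 25.2, 20.4, 26.5, 24.9 and 23.3 CPM in acute Control libraries (-0.29 ± 0.08, adjusted p = 0.0339 by limma). Psmg3 was 18.7, 19.1 and 22.2 CPM in DKO, against 23.4, 23.4, 22.7, 21.2 and 24.2 CPM in Control libraries (-0.23 ± 0.07, adjusted p = 0.0315 by limma). In Psmg1 3 of 7 DKO libraries lay above the lowest Control library, and in Psmg3 1 of 7 did. On TMM-scaled CPM these had -0.20 and -0.14, with adjusted p of 0.111 and 0.180 by limma. Psmg4 had -0.25 ± 0.11 and an adjusted p of 0.158 by limma. Pomp, a core assembly factor outside the symbol rule, had -0.09 ± 0.05 (adjusted p = 0.261 by limma), and -0.01 on TMM-scaled CPM.

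The chaperones of the regulatory particle gave smaller differences, and none of 3 was called. Psmd5 was 28.5, 30.5 and 34.0 CPM (lowest, median and highest) in acute DKO, against 34.2, 34.6, 34.7, 33.8 and 33.5 CPM in acute Control libraries (-0.14 ± 0.06, adjusted p = 0.118 by limma). Psmd10, also known as gankyrin, was 27.2, 28.5 and 29.5 CPM in DKO, against 30.6, 28.9, 29.7, 29.3 and 28.3 CPM in Control libraries (-0.05 ± 0.05, adjusted p = 0.583 by limma). Psmd9 had -0.14 ± 0.06, with 25.5% of its exon bases shared with Gm26745 on the opposite strand.

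None of the 6 activator and inhibitor genes was called at the acute time. Their median was 0.10, with 4 of 6 above 0, and it was 0.05 without DKO 3 and 4 and 0.02 with animal-number ranges as a block. On TMM-scaled CPM it was 0.19, with 1 of 6 below 0, and none was called there either. Psme1, the alpha subunit of PA28, was 260.2, 285 and 318 CPM (lowest, median and highest) in acute DKO, against 299, 244, 265, 245 and 272 CPM in acute Control libraries (0.11 ± 0.06, adjusted p = 0.279 by limma). Psme2, the beta subunit, had 0.12 ± 0.07 and Psme4, the PA200 activator, 0.09 ± 0.07. Psme3, the nuclear PA28 gamma, had -0.06 ± 0.07 and the inhibitor gene Psmf1 -0.14 ± 0.08. Psme2 and Psme2b share near-identical sequence over 82.5% and 94.9% of their transcripts, so the split of reads between them is uncertain.

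Psmc3ip, which acts with Mnd1 in strand exchange, was the member with the fewest reads. It was 1.24, 2.61 and 3.06 CPM (lowest, median and highest) in acute DKO, against 3.70, 2.34, 3.50, 3.35 and 3.13 CPM in acute Control libraries (-0.34 ± 0.16, adjusted p = 0.164 by limma). Of its exon bases 21.2% are shared with Mlx on the opposite strand.

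Single libraries and animals moved the acute counts. Leaving out each library in turn left 2 to 14 members called lower, with 2 without Control 1, 3 without Control 3 or without DKO 1, 4 without Control 4, 5 without DKO 3 or without DKO 5, 6 without Control 5 or without DKO 2, and 14 without DKO 4. Over all 13601 genes the calls lower moved too, with 1179 without Control 1, 1012 without Control 3 and 1557 without DKO 4, against 1641 with every library. Psmb6 was called in 12 of 12 of these fits, Psmc2 in 11, Psmc4 in 10, Psmg2 in 8, and Psmb7 in 1. The members' median stayed between -0.15 and -0.12. Without DKO 3 and 4, the libraries that stood apart, 11 members were called lower (9.64% of all genes). The members' median was then -0.17, against -0.04 over all genes. Psmg2 was no longer called, at -0.31 with an adjusted p of 0.0691 by limma. The acute titles carry animal numbers in separate ranges. DKO 3 and 4 form a range with no Control library and Control 5 stands alone in its range, so a block by range leaves these 3 libraries out of the contrast. With this block 6 members were called lower (9.14% of all genes), and the members' median was -0.18, against -0.05 over all genes. Psma4, Psmb6, Psmc1, Psmg1, Psmg2 and Psmg3 lost their calls, and Psma1 and Psmd2 gained one. Psma4 then had -0.20, Psmb6 -0.19 and Psmg2 -0.32, with adjusted p of 0.0580, 0.0649 and 0.0796 by limma. Within the 1 range that holds 2 DKO and 3 Control libraries, the members' median was -0.12, against -0.05 over all genes. None of the members was called there (3.18% of all genes were called lower).

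Other cell programmes moved beside these values at the acute time. Of 20 cell cycle markers 20 were called lower, and they summed to 922 to 1277 CPM in DKO and 1491 to 1968 CPM in Control libraries. Of 10 stem cell markers 5 were called lower, at 666 to 1311 CPM in DKO and 1566 to 2088 CPM in Control libraries, and of 8 Paneth cell markers 6 were called lower, at 3911 to 12387 CPM in DKO and 7869 to 9752 CPM in Control libraries. Of 18 interferon response genes 11 were called higher, at 825 to 1327 CPM in DKO and 518 to 830.3 CPM in Control libraries. Of 12 enterocyte markers 3 were called higher and 1 lower, at 36545 to 48864 CPM in DKO and 28092 to 41645 CPM in Control libraries. Of 10 immediate early genes 3 were called higher, at 549 to 686 CPM in DKO and 414 to 585 CPM in Control libraries. Among 15 immune cell markers 0 were called, with 2478 to 3349 CPM in DKO and 2135 to 2945 CPM in Control libraries. No marker of these lists was at 0 in every library. Their part in the proteasome values was not tested, and in bulk samples fewer cells of a type and less RNA per cell cannot be told apart.

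At the prolonged time the subunits lay close to Control and Psmg2 was lower again. The PA28 genes Psme1 and Psme2 were called higher, Psme2 with an uncertain share of reads. Of the 45 genes 2 were called higher and 1 lower, where 5.74% of all 13316 genes tested were called higher and 8.94% lower, so neither share exceeds its background. The median of the 45 was -0.05, against 0.00 over all genes. By limma-trend 9 of 45 had an unadjusted p under 0.05, as did 3758 of all 13316 genes tested. The same 3 genes were called on TMM-scaled CPM, where 6.55% of all genes were called higher and 8.73% lower, and by edgeR with TMM factors (6.20% and 8.75%). They were also called by edgeR with relative log expression factors (6.16% and 8.76%) and by DESeq2 (6.59% and 9.11%), with a pseudocount of 0.25 and with no filter.

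Psme1 was 251, 254, 236, 256 and 247 CPM in prolonged DKO libraries, against 223, 203 and 203 CPM in prolonged Control libraries. Every DKO library lay above every Control library, and Psme1 rose by 18.6% (0.25 ± 0.05, adjusted p = 0.00737 by limma). The call held in each of the 8 fits that left out 1 library. The authors' deposited table lists 0.26 for it, with an adjusted p of 8.9e-05.

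Psme2 was 87.6, 86.7, 84.0, 92.0 and 88.2 CPM in prolonged DKO, against 79.4, 78.1 and 77.5 CPM in prolonged Control libraries. The groups did not overlap (0.16 ± 0.05, adjusted p = 0.0447 by limma), and 2 members were higher in every DKO than in every Control library (8.82% of all genes were). The call held in 1 of 8 fits that left out 1 library, that without DKO 3, and the adjusted p reached 0.157 without Control 3. PA28 alpha and beta together summed to 336 ± 10.2 CPM in prolonged DKO and 288 ± 12.1 CPM in prolonged Control libraries (SD, n = 5 and n = 3). This sum leaves out Psme2b, at 170 ± 5.41 CPM in prolonged DKO and 160 ± 2.56 CPM in prolonged Control libraries. Psme2 and Psme2b share near-identical sequence, so the split of reads between them is uncertain here too. Psme2b had 0.09 ± 0.05, Psme3 0.13 ± 0.06, Psme4 0.11 ± 0.05 and Psmf1 -0.02 ± 0.07, and none of these passed the test.

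**Figure D4:**
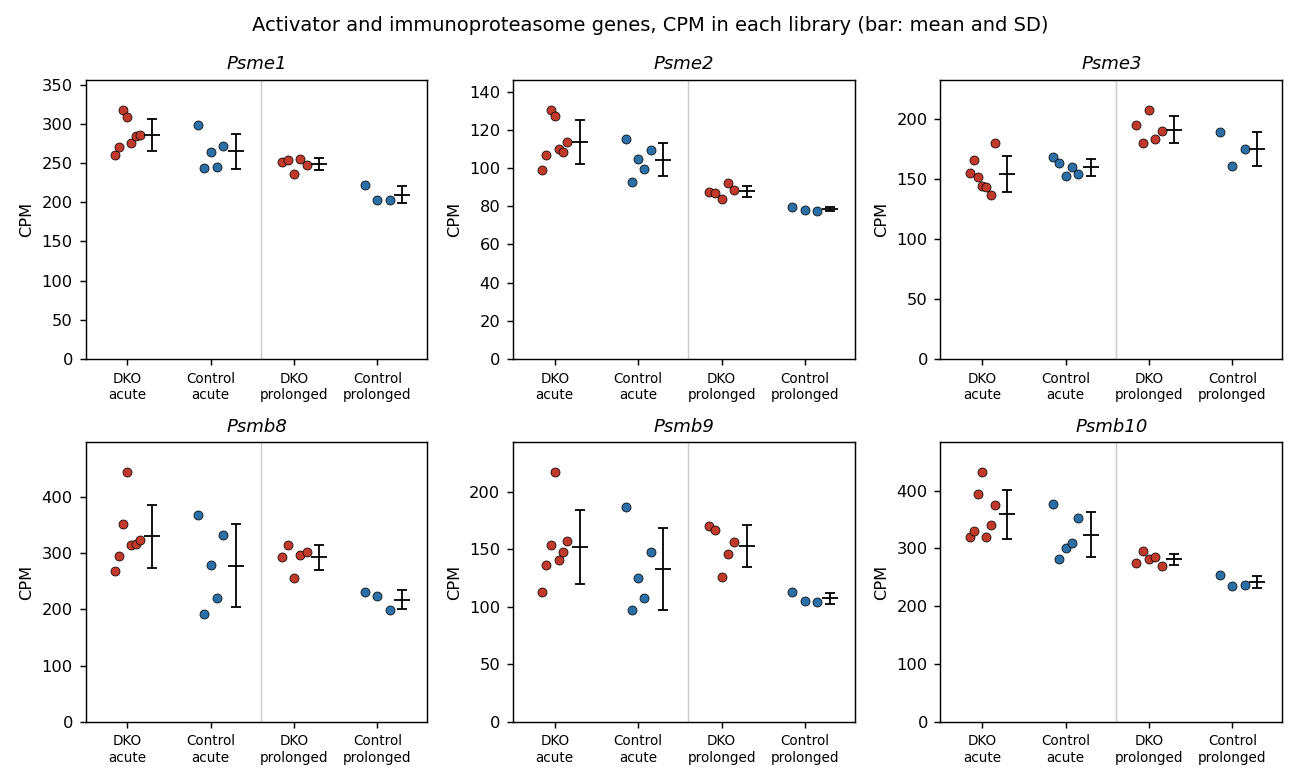
CPM (y axis, from 0) of the activator genes Psme1, Psme2 and Psme3 and of the 3 immunoproteasome genes in each library, DKO left of Control at each time. Points are libraries, and bars beside them give the mean and SD. At the prolonged time every DKO library lies above every Control library in each gene but Psme3, and at the acute time the groups overlap in all 6.

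The 3 immunoproteasome genes, which the rule leaves out, moved in the same direction as PA28 at the prolonged time. Psmb8 was 294, 314, 255, 298 and 303 CPM in prolonged DKO, against 230.3, 223 and 199 CPM in prolonged Control libraries (0.43 ± 0.07, adjusted p = 0.00244 by limma). Psmb9 was 171, 167, 126, 146 and 156 CPM in DKO, against 113, 105.4 and 104 CPM in Control libraries (0.50 ± 0.09, adjusted p = 0.00302 by limma). Psmb8 shares 14.7% of its exon bases with Gm20496 and Psmb9 shares 5.8% with Tap1, both on the opposite strand. Psmb10 was 275, 295, 282, 285 and 269 CPM in DKO, against 253, 234 and 236 CPM in Control libraries (0.22 ± 0.05, adjusted p = 0.0118 by limma). All 3 were higher in every DKO library, and Psmb10 lost its call without Control 3 (adjusted p = 0.0675 by limma). The constitutive genes they stand in for, Psmb5, Psmb6 and Psmb7, had -0.02 ± 0.08, -0.10 ± 0.05 and -0.09 ± 0.05, and none was called.

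At the acute time the immunoproteasome genes spread widely within both groups and none was called. Psmb8 was 269, 316 and 444.01 CPM (lowest, median and highest) in acute DKO, against 369, 191, 278, 220.2 and 332 CPM in acute Control libraries (0.27 ± 0.16, adjusted p = 0.273 by limma). Psmb9 had 0.21 ± 0.16 and Psmb10 0.15 ± 0.09, with adjusted p of 0.450 and 0.317 by limma. The 3 genes had 0.24 to 0.36 on TMM-scaled CPM and 0.06 to 0.16 without DKO 3 and 4, with none called in either fit. Control 1 and 5 were the high Control libraries in all 3 genes and DKO 4 the highest DKO library. Beside the prolonged values, 12 of 18 interferon response genes were higher, at 798 to 1058 CPM in DKO and 591 to 710.2 CPM in Control libraries. Of 14 immune cell markers tested 3 were higher, at 2670 to 3062 CPM in DKO and 2119 to 2527 CPM in Control libraries. Of 20 cell cycle markers 18 were called lower at this time, at 1357 to 1619 CPM in DKO and 1843 to 2228 CPM in Control libraries. Of 8 Paneth cell markers 4 were lower, at 3208 to 7558 CPM in DKO and 8137 to 8751 CPM in Control libraries, and of 10 stem cell markers 2 were lower, at 1162 to 1388 CPM in DKO and 1743 to 1931 CPM in Control libraries. Their part in the PA28, immunoproteasome, subunit and Psmg2 values was not tested.

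Psmg2 was 14.3, 12.5, 14.7, 14.99 and 17.1 CPM in prolonged DKO, against 19.2, 19.4 and 18.6 CPM in prolonged Control libraries. The groups did not overlap, and Psmg2 fell by 21.9% (-0.36 ± 0.10, adjusted p = 0.0294 by limma). The call held in 2 of the 8 fits that left out 1 library, those without DKO 3 and without DKO 5, and the adjusted p was at most 0.0811. The other core chaperones had values nearer to 0, with -0.00 ± 0.09 for Psmg1, -0.10 ± 0.09 for Psmg3 and -0.13 ± 0.10 for Psmg4, and none was called.

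At the prolonged time 6 of the 31 core and cap subunits had an unadjusted p under 0.05 by limma-trend (3758 of all 13316 genes did). Of these 31 subunits 0 were called by limma-trend, and 0 by limma on TMM-scaled CPM and by edgeR. Their median was -0.06, and they summed to 2969 ± 46.0 CPM in prolonged DKO and 3101 ± 104 CPM in prolonged Control libraries (SD, n = 5 and n = 3). The sums overlapped, with 2894 to 3011 CPM in DKO and 3174, 2982 and 3147 CPM in Control libraries. Psmd7 and Psmd14, the pair at the deubiquitinating site of the lid, had the lowest values among subunits, -0.17 ± 0.06 and -0.16 ± 0.05, with adjusted p of 0.0648 and 0.0740 by limma. Psmd7 was 79.3, 72.8, 70.4, 72.1 and 73.7 CPM in DKO, against 84.0, 78.2 and 87.6 CPM in Control libraries, and passed the test without Control 2 or without DKO 1. Lower in every DKO library were 5 members (11.7% of all genes), which were Psma4, Psmc4, Psmd2, Psmd14 and Psmg2.

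Psma4 was 102, 100.5, 99.6, 103 and 100.2 CPM in prolonged DKO, against 109.7, 106 and 110.0 CPM in prolonged Control libraries (-0.10 ± 0.04). Psmb6 was 104, 97.2, 106.9, 101 and 98.5 CPM in DKO, against 109.6, 105.4 and 111.5 CPM in Control libraries (-0.10 ± 0.05). The groups did not overlap in Psma4 and met in Psmb6, and neither passed the test, with adjusted p of 0.149 and 0.225 by limma. Psmc2 was 86.9, 83.5, 82.2, 82.5 and 83.0 CPM in DKO, against 93.7, 85.9 and 90.4 CPM in Control libraries (-0.10 ± 0.05). Psmc4 was 74.4, 74.4, 71.4, 75.1 and 68.6 CPM in DKO, against 77.8, 78.4 and 83.9 CPM in Control libraries (-0.14 ± 0.05). Psmd2 was 181, 181, 174, 179 and 173 CPM in DKO, against 188, 187 and 195 CPM in Control libraries (-0.10 ± 0.04). For these 3 genes the adjusted p was 0.191, 0.117 and 0.174 by limma.

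The chaperones of the regulatory particle and Psmc3ip overlapped between groups at the prolonged time. Psmd5 was 33.1, 32.0, 34.5, 28.7 and 31.6 CPM in prolonged DKO, against 36.1, 28.8 and 33.8 CPM in prolonged Control libraries (-0.04 ± 0.08). Psmd10 was 25.5, 22.4, 23.2, 22.9 and 22.4 CPM in DKO, against 26.7, 23.1 and 24.6 CPM in Control libraries (-0.09 ± 0.08). Psmc3ip was 2.95, 1.73, 1.38, 2.43 and 1.98 CPM in DKO, against 3.84, 2.41 and 2.02 CPM in Control libraries (-0.27 ± 0.19).

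The difference between the times was tested in one model of all 4 groups over the 13088 genes tested at both times. None of the 45 genes and none of all genes (0.00%) was called by limma-trend, 2 of 45 and 608 of all genes had an unadjusted p under 0.05, and edgeR called 0 as well. The median of the prolonged minus acute effect was 0.08 over the members and 0.08 over all genes. For Psmg2 the difference was 0.02, with a 95% interval of -0.27 to 0.31, and for Psme1 it was 0.13, with an interval of -0.04 to 0.31. Psmg1 had the largest, at 0.28 with an interval of 0.04 to 0.53 and an adjusted p of 0.859 by limma. A change of the effect with time was therefore not shown for any member.

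Levels between genes can be compared only per length, here as CPM per kilobase of the principal GENCODE M21 transcript, which need not be the one the cells use. The order of genes depends on this length, as for Psma7, where 914 bases were used and a longer transcript has 1157. In acute DKO libraries Psmb4, Psma7 and Psmb6 were at 185 ± 12.5, 181 ± 11.4 and 153 ± 9.21 CPM per kilobase, against 205 ± 2.78, 202 ± 11.4 and 175 ± 1.88 in acute Control libraries (SD, n = 7 and n = 5). The Psmg core chaperones were lower, with 13.5 ± 1.38 for Psmg2 and 22.1 ± 1.37 for Psmg3 in acute DKO, against 17.8 ± 2.79 and 26.0 ± 1.26 in acute Control libraries. Psme1 was at 257 ± 18.5 in acute DKO and 238 ± 20.2 in acute Control libraries, and at 224 ± 6.99 in prolonged DKO and 189 ± 10.04 in prolonged Control libraries.

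The members' spread between libraries of one group was not compared with that of other genes. The members' median coefficient of variation of CPM was 7.65% in acute DKO, 5.63% in acute Control, 3.76% in prolonged DKO and 5.12% in prolonged Control libraries. The largest in every group was that of Psmc3ip, at 28.0% in acute DKO, 16.5% in acute Control, 29.2% in prolonged DKO and 34.8% in prolonged Control libraries.

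Calls among the other genes of the pathway are given against 12.1% of all genes called lower and 2.90% higher at the acute time. At the prolonged time 8.94% were called lower and 5.74% higher. Of 12 proteasome partners 1 was called lower at the acute time and 0 at the prolonged time, with medians of -0.08 (0.00 on TMM-scaled CPM) and -0.01. The called gene was Uchl5, a deubiquitinase of the cap, at -0.23 ± 0.07 (adjusted p = 0.0411 by limma). AI314180 missed the threshold at the prolonged time, at 0.17 ± 0.05 with an adjusted p of 0.0612 by limma, and passed it on TMM-scaled CPM (0.0274 by limma), by edgeR (0.0343) and by DESeq2 (0.00971). At the acute time DESeq2 called it higher (adjusted p = 0.00448), and limma did not (0.06 ± 0.05, adjusted p = 0.543). Of 7 genes that control proteasome genes 1 was called lower at the acute time and 0 at the prolonged time. This was Ddi2, the protease that activates Nfe2l1, at -0.20 ± 0.06 (adjusted p = 0.0406 by limma), while Nfe2l1 itself, the factor that raises proteasome genes when the proteasome is inhibited, had 0.02 ± 0.04. Neither call held on TMM-scaled CPM, where Mafg, a small Maf partner of Nfe2l1, was higher (0.41, adjusted p = 0.0101 by limma).

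Of 15 genes of ubiquitin supply and delivery 4 were called lower at the acute time, where 12.1% of all genes were. The 4 genes are described in part. Among them were the shuttle genes Rad23b and Ubqln1, at -0.17 and -0.14, and Vcp, the segregase that extracts ubiquitinated proteins, at -0.17. None of the 4 was called by limma on TMM-scaled CPM. At the prolonged time 2 of the 15 were called higher (5.74% of all genes were). Of these the shuttle gene Ubqln2 was 32.0, 39.3, 37.5, 34.7 and 35.0 CPM in prolonged DKO, against 27.4, 28.4 and 24.7 CPM in prolonged Control libraries (0.40 ± 0.08, adjusted p = 0.00630 by limma).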

How the data were processed

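For each time the authors deposited a table of gene symbols, holding CPM per library and the columns of a DESeq2 comparison, among them log2 fold changes and adjusted p-values, per the file headers. The deposited CPM have the same sum in every library, with no scaling for composition. The submitters' processing notes name STAR, FastQC 0.11.5, featureCounts 1.6.2, SAMtools 1.9, bedtools 2.27.1, DESeq2 and mouse build mm9. The sources used here do not say whether counting used strand or how reads with several matches were treated.

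Within each library the CPM values were whole multiples of the value of 1 read (tolerance 0.01 reads, 100% of values), so reads could be recovered, with weaker evidence for prolonged Control 3. Over genes, the 44 pairs of libraries of the same group differed by 6.14 to 139 times the sampling variance, and all 20 libraries were used as separate samples. The 24 acute names turned into dates were left out of comparisons between times.

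Main tests were run on log2(CPM + 1) with limma-trend from limma 3.58.1 in R 4.3.3, with each time fitted alone and no covariate. Genes needed a CPM of at least 0.5 in at least 5 acute or 3 prolonged libraries. This scale understates changes of low genes. The effect between times was a contrast in 1 fit of all 4 groups. Alternatives were another pseudocount, no filter, TMM-scaled CPM, edgeR 4.0.16 and DESeq2 1.42.0 on recovered reads, blocks by replicate number and by animal number range, and leaving out each library. The fits were tested on simulated data. Near-identical sequence (at least 95% over 100 bases, BLAST 2.17.0) and shared exon bases come from GENCODE M21, a build other than the authors', and promoters from RefSeq. Members, lists and tests were chosen with earlier results of these data known. In each role group the genes with the smallest acute and prolonged p, and the called genes with the largest rise and fall, are given library by library, together with Psme2, Psmg1, Psmg3 and Ubqln2, chosen after their values were seen. Values of some listed pathway genes are not reported here.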

Additional observations from a re-analysis of the deposited data

Results flagged for a closer look

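Of 42 groups of values checked for a library far from the rest of its group, 4 held one, and chance alone gives about 1 in 20 groups. Psmc2 was 86.9 CPM in prolonged DKO 1, above 82.2 to 83.5 CPM in the other prolonged DKO libraries and inside the Control range. Psmd10 was 25.5 CPM in the same library, above 22.4 to 23.2 CPM in the others. Psmd2 was 230.5 CPM in acute Control 1, above 196 to 199.5 CPM in the other acute Control libraries. Psmb9 was 217 CPM in acute DKO 4, above 113 to 157 CPM in the other acute DKO libraries. Interferon response genes summed to 1327 CPM in acute DKO 4, the highest of the acute DKO libraries, and the part of this in the Psmb9 value was not tested.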

How the results depend on the processing

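Scaling for composition changed the acute count. Members called lower came to 10 on deposited CPM and to 1 on TMM-scaled CPM, by edgeR with TMM or relative log expression factors, and by DESeq2. Their median was -0.14 on deposited CPM, -0.05 with TMM in limma and edgeR, and -0.04 with relative log expression factors and in DESeq2, while the median of all genes moved to between 0.01 and 0.03. Leaving out 1 library gave 2 to 14 members called lower at the acute time, with 1237 to 2185 genes called in all. At the prolonged time it gave 0 to 1 members lower, 1 to 2 higher, and 1052 to 1724 genes called. The animal-number block gave 6 acute members lower, and the 1 range of animal numbers alone gave 0 members and 519 genes. Same-numbered DKO and Control libraries did not all deviate together (correlations of -0.202 to 0.198 at the acute and -0.24 to -0.158 at the prolonged time). With so few libraries this shows no pairing by replicate number and cannot exclude a weak one. With the replicate block 0 acute members and 955 genes were called, and 0 members higher, 0 lower and 521 genes at the prolonged time. The libraries with shared numbers alone, without the block (chosen after seeing the data), gave 11 acute members lower, where 1927 of all 13601 genes were called lower. At the prolonged time they gave 0 members higher, 1 lower and 959 genes. Between the times, separate fits called 20 genes, no filter 5, and leaving out 1 library 0 to 2, with 0 members in each, and the members' median was -0.01 by edgeR. No named gene reversed its direction after being called. Over the named genes under every alternative, 512 values stayed on their side of the threshold, 67 lost and 5 gained a call, and 16 uncalled values changed sign. Among the called members Psmg2, at under 24 CPM in every library, has the widest standard error. The cause of these differences was not tested.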
